A study of Mus musculus with 6 samples.

Results

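The Rhox genes (reproductive homeobox genes on the X chromosome) encode homeodomain transcription factors that lie side by side in a single X-linked cluster. The members Rhox2d, Rhox5, Rhox6, Rhox9 and Rhox10 (5 genes) are described here in cultured mouse keratinocytes without the DNA methyltransferase DNMT1. They were chosen because their counts in Dnmt1Δ/Δep libraries stood out among the 41 genes named Rhox in a table of 43629 genes, and the other 36 stayed at or near 0. The difference between the groups is therefore what chose them. It is given below as values, and no test of it was made.

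In normal mice the Rhox genes are active in testis, ovary, epididymis and placenta and are silent in most other tissues, where their promoters carry DNA methylation. DNMT1 copies methylation onto the new strand at each cell division, so that dividing cells that lose it lose methylation passively. The homeodomain reads DNA mainly through its recognition helix, which lies in the major groove.

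RNA sequencing was performed on epidermal keratinocytes of 3 control and 3 Dnmt1Δ/Δep mice, all labeled female, isolated at postnatal day 3 and cultured for 5 days in low-calcium keratinocyte medium on coated dishes. A figure legend of the study gives a shorter culture time. Dnmt1Δ/Δep mice carried K5-Cre, which is driven by the keratin 5 promoter and acts in basal keratinocytes, together with homozygous floxed Dnmt1, on a mixed C57BL/6J and 129SV background. Cells in the cultures that never made keratin 5 would keep Dnmt1. The labels do not give the Dnmt1 allele of each control mouse, and controls and Dnmt1Δ/Δep mice with the same replicate number shared a sequencing lane.

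Dnmt1 counts followed the labels. Scaled to 1000000 counts per library, with TMM factors for composition (CPM), Dnmt1 stood at 394, 379 and 324 in controls, against 49.7, 54.3 and 50.7 in mutant libraries. This was a log2 fold change of -2.83 (SE 0.11, edgeR quasi-likelihood test, adjusted p = 8.1e-05). Libraries held 53433121 to 115526598 counts in genes, so that 3 counts, the limit that a count of 0 allows, equaled 0.0254 to 0.0558 CPM. Counting intervals and such limits cover counting error only. Of 16829 genes tested, 1014 were called higher (6.03%) and 66 lower (0.392%) in Dnmt1Δ/Δep cells, at an adjusted p of 0.05 or less and a change of at least 2-fold. Without control replicate 2 the number called higher was 559, and without Dnmt1Δ/Δep replicate 1 it was 591. Keratinocyte markers were present in every library, with a sum over 12 genes of 38400 to 42500 CPM in control cultures and 29100 to 30800 CPM in Dnmt1Δ/Δep cells, and none of the 12 was called. Krt5 and Krt14, the keratins of basal cells, stood at 17900 ± 1180 and 9440 ± 978 CPM in controls and 12700 ± 112 and 6180 ± 463 CPM in mutants (SD, n = 3 each). Krt5, Krt14 and Col17a1 missed the call on the 2-fold limit alone. Their log2 fold changes were -0.50, -0.61 and -0.55 (edgeR adjusted p = 0.038, 0.028 and 0.035, and up to 0.14, 0.12 and 0.13 over the alternative fits). The differentiation markers differed in either direction, with means of 313 and 63.6 CPM for Krt1, 23.8 and 7.98 for Krt10, 15.7 and 47.9 for Ivl and 10.4 and 33.8 for Lor (control and mutant in turn). Each of the 4 was called in 3 or 4 of 10 alternative fits. For Krt1 and Krt10 control replicate 1 stood apart, at 53.2 and 9.63 CPM, against 66.1 and 10.6 in Dnmt1Δ/Δep replicate 1. Control replicates 2 and 3 read 356 and 530 CPM for Krt1 and 32.1 and 29.7 for Krt10. Xist, the RNA that coats the inactive X chromosome, read 93.0 CPM in Dnmt1Δ/Δep replicate 2 and 727 to 1280 CPM in the other libraries. The part of Xist in the Rhox levels was not tested.

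The 5 proteins share the homeobox but differ elsewhere. Aligned over their coding sequences, Rhox6 and Rhox9 were 90.8% identical, whereas every other pair among the 5 was between 48.5% and 54.5% identical. The stretch that encodes the recognition helix is shown for each because it is the part that contacts DNA. Each line gives coding bases 5′ to 3′ (GENCODE M21, mouse GRCm38). The capitals mark 6 codons, which were found by a search. It asked for the invariant tryptophan and phenylalanine of the helix at the start, and for arginine or lysine followed by arginine at the end.
Rhox5: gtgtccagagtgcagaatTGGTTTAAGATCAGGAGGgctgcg
Rhox6: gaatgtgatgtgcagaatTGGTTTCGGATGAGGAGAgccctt
Rhox9: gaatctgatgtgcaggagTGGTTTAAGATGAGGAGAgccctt
Rhox10: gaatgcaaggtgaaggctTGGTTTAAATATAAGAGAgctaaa
Rhox2d: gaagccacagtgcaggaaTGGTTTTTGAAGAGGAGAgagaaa
The first and last residues of the capitals were thus set by the search. Between them each of the 5 genes has its own pair of codons. A read that covers only such a stretch of Rhox6 or Rhox9 is close to the other gene, a limit on the counts that is taken up with those genes.

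Rhox5 was the most abundant Rhox transcript. It is the founding member, known also as Pem, and is made in Sertoli cells, the epididymis, ovary and placenta. The gene (ENSMUSG00000095180) lies on the plus strand of chromosome X at chrX:37804842-37808876. Its counts were 22, 19 and 13 in controls, against 1690, 1789 and 2391 in Dnmt1Δ/Δep cells. In CPM these were 0.233, 0.195 and 0.242 against 28.4, 20.7 and 20.3, so that the lowest Dnmt1Δ/Δep library lay far above the highest control. The means were 0.223 ± 0.0249 and 23.1 ± 4.55 CPM (SD, n = 3 each). The ratio of the pooled rates was 101 (95% counting interval 77.4 to 135), and for libraries of the same replicate number it was 122, 106 and 83.7. The fitted log2 fold change was 6.70 (SE 0.23), and it stayed between 6.52 and 6.78 over 10 alternative fits. A few counts were thus present in each control library, unlike those of most Rhox genes.

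Rhox6 and Rhox9, known also as Psx1 and Psx2, are a pair of placental and germ cell genes that sit close to each other downstream of Rhox5. Rhox6 (ENSMUSG00000006200, chrX:37826910-37829857, plus strand) had 3, 0 and 2 counts in control and 263, 172 and 351 in Dnmt1Δ/Δep libraries. This corresponded to 0.0317, 0 and 0.0372 CPM against 4.41, 1.99 and 2.97 CPM. Control counts were at the floor in all libraries, and every Dnmt1Δ/Δep library was well above it. The means were 0.023 ± 0.0201 and 3.13 ± 1.22 CPM (SD, n = 3 each), a ratio of pooled rates of 146 with a 95% counting interval of 62.4 to 452.

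Rhox9 (ENSMUSG00000068048, chrX:37899097-37901770, minus strand) was read 0 times in each control library and 39, 17 and 54 times in the Dnmt1Δ/Δep libraries. Levels in the latter were 0.654, 0.197 and 0.458 CPM, with a mean of 0.436 ± 0.23 (SD, n = 3). Against 3 counts per control library, the level was at least 11.1-fold higher. Dnmt1Δ/Δep replicate 2 was the lowest of the 3 for both Rhox6 and Rhox9, and replicate 1 the highest. Of the 50-base words of Rhox6, 83.5% occurred in no other annotated gene and 16.5% were shared with Rhox9, which itself had 93.7% unique words. The Rhox6 and Rhox9 counts could therefore have been assigned over most of each gene, but a small exchange between them cannot be seen.

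Rhox10, a homeobox gene of spermatogonia that is needed for a full pool of spermatogonial stem cells, had a control level above those of Rhox6, Rhox9 and Rhox2d in CPM. The gene (ENSMUSG00000053909) lies at chrX:38066475-38071691 on the plus strand. Counts were 10, 20 and 6 in control and 81, 84 and 214 in Dnmt1Δ/Δep libraries. As CPM they were 0.106, 0.205 and 0.112 against 1.36, 0.971 and 1.81. The groups did not overlap. The means were 0.141 ± 0.0558 and 1.38 ± 0.422 CPM (SD, n = 3 each), and the ratio of pooled rates was 9.8 (95% counting interval 6.95 to 14.2). Libraries with the same replicate number gave ratios of 12.9, 4.73 and 16.2. The fitted log2 fold change was 3.26 (SE 0.41), and ranged from 3.01 to 3.65 over the alternative fits.

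Rhox2d is 1 of 8 near-identical Rhox2 copies that were duplicated together with Rhox3 and Rhox4 copies. The gene (ENSMUSG00000095698, chrX:37493428-37497623, plus strand) had 0, 0 and 1 counts in control and 11, 21 and 40 in Dnmt1Δ/Δep libraries. The Dnmt1Δ/Δep levels were 0.185, 0.243 and 0.339 CPM, with a mean of 0.255 ± 0.078 (SD, n = 3). All 3 exceeded the single control value above 0, which was 0.0186 CPM. From 1 control count the ratio of pooled rates was 67.0, with a 95% counting interval of 11.7 to 2680.

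**Figure D1:**
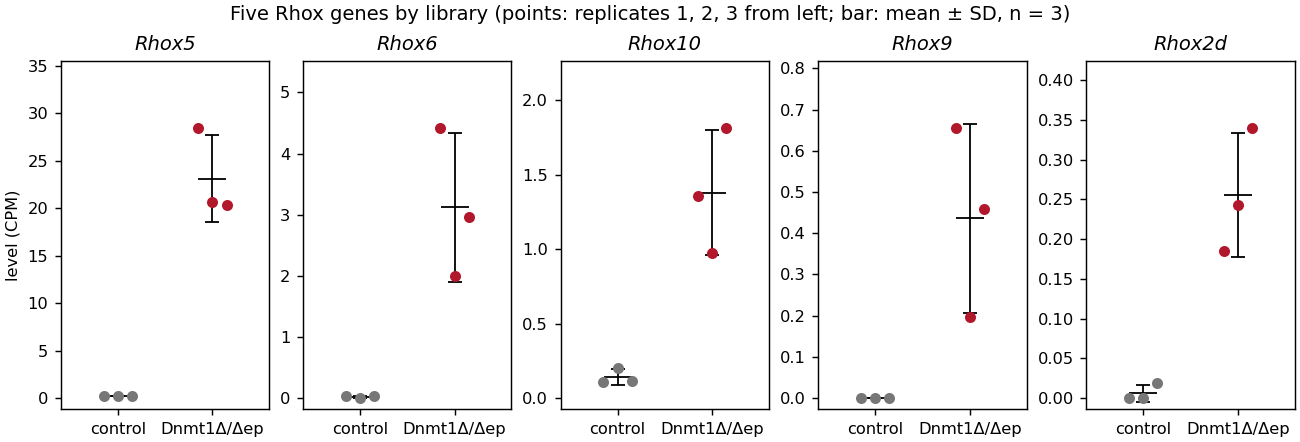
Level of each Rhox gene in CPM on the vertical axis (linear, a separate scale in each panel) in the 3 control and 3 Dnmt1Δ/Δep libraries. Points are libraries, and bars give mean ± SD (n = 3). Dnmt1Δ/Δep libraries lie above all controls in each panel, from 20.3 to 28.4 CPM for Rhox5 and from 0.185 to 0.339 CPM for Rhox2d.

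In these 5 genes the groups did not overlap, a pattern that 18.2% of all genes tested showed with Dnmt1Δ/Δep higher. Since the genes were chosen by this contrast, nothing is read from the count. All 5 passed the filter on low counts, which needs about 0.109 CPM in 3 libraries. Rhox2d, Rhox6 and Rhox9 did so through their Dnmt1Δ/Δep libraries alone, whereas Rhox5 reached this level in all 3 controls. Rhox10 reached it in 2 controls, so it too needed Dnmt1Δ/Δep libraries to pass. Rhox2d, Rhox6 and Rhox9 also met a stricter description, at most 3 counts in each control and more than 10 in each Dnmt1Δ/Δep library, which 191 of 27640 genes with a count met (0.691%).

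Strength was ordered on the scale of CPM per kilobase of annotated exon (RPKM). Rhox5 stood first with 30.6 ± 6.04 RPKM (SD, n = 3, as for the following values). Rhox6 followed with 3.09 ± 1.21 and Rhox10 with 1.81 ± 0.553. The ranges of these neighbors overlapped, although Rhox6 was above Rhox10 within each of the 3 libraries. Rhox2d came next with 0.373 ± 0.114 and Rhox9 last with 0.175 ± 0.0923 RPKM, without overlap between Rhox10 and Rhox2d. Rhox2d was above Rhox9 within each of the 3 libraries. The lowest Rhox2d library (0.269) and the highest Rhox9 library (0.263) almost met, so that the order of this last pair is weak. It also rests on the length of Rhox9, whose 2 annotated transcripts together cover 2488 exonic bases of a gene of 2.674 kb.

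Without regard to length, Rhox5 alone held 79.7% of all Rhox counts in Dnmt1Δ/Δep cells, with 79.5%, 84.0% and 76.9% in the 3 libraries. Rhox6 held 10.7%, Rhox10 5.14%, Rhox9 1.49% and Rhox2d 0.977%. Summed over the 41 genes, the libraries had 36, 39 and 22 Rhox counts in control and 2126, 2131 and 3111 in Dnmt1Δ/Δep cells, or 28.9 ± 5.93 CPM in the latter (SD, n = 3). The ratio of pooled rates for the whole family was 70.7 (95% counting interval 57.9 to 87.3). In RNA from a whole culture, more cells that express a gene and more RNA per cell cannot be told apart.

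The library with the low Xist level, Dnmt1Δ/Δep replicate 2, had a summed Rhox level of 24.6 CPM, against 35.7 and 26.4 CPM in replicates 1 and 3. It was the lowest of the 3 for Rhox6, Rhox9 and Rhox10, and lay between the others for Rhox5 and Rhox2d. Without it the means were 24.3 CPM for Rhox5, 3.69 for Rhox6, 1.59 for Rhox10, 0.556 for Rhox9 and 0.262 for Rhox2d.

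The other 36 Rhox genes stayed near 0. Of these, 22 had no count in any library, 14 had at least 1 count, 9 had more than 3 in some library and 4 reached 10. Only Rhox12 had a control count, and it had 1. None passed the filter on low counts, so none was tested. Together they gave 1, 0 and 0 counts in control and 42, 48 and 61 in Dnmt1Δ/Δep libraries.

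The largest share of these came from the remaining Rhox2 copies. In Dnmt1Δ/Δep replicates 1, 2 and 3, Rhox2h had 5, 7 and 11 counts, Rhox2g had 1, 10 and 8, and Rhox2f had 6, 7 and 4. Rhox2b had 1, 4 and 11 counts, Rhox2a had 1, 3 and 8, and Rhox2c had 6, 4 and 2, whereas Rhox2e had none. Each of the 6 copies with counts was thus seen in every Dnmt1Δ/Δep library and in no control. Summed over the 8 copies, Rhox2d included, there were 0, 0 and 1 counts in control and 31, 56 and 84 in Dnmt1Δ/Δep libraries (0.627 ± 0.0977 CPM, SD, n = 3), a ratio of 159 with a 95% counting interval of 28.2 to 6320.

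Outside the Rhox2 group, Rhox1, the first gene of the cluster, had 11, 6 and 5 counts in Dnmt1Δ/Δep libraries. Rhox13, a gene of male germ cells, had 4, 2 and 3. Rhox4d had 7, 0 and 4 counts and Rhox4e 0, 3 and 2, while Rhox4b, Rhox4c and Rhox7b each had a single count in 1 library. Rhox12 had 0, 1 and 1. All 9 genes named Rhox3, as well as Rhox11 and Rhox8, a gene of Sertoli and granulosa cells, had no count in any of the 6 libraries.

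How far a count near 0 can be read depends on how much of a gene is its own. Of the 36 genes, 25 had fewer than 50% of their 50-base words unique to them, and a read from such a stretch cannot be given to 1 gene. Rhox2d had the highest unique share of the Rhox2 copies at 50 bases, 55.3%. At 100 bases Rhox2h (89.3%) and Rhox2g (82.3%) stood above Rhox2d (81.9%). The coding sequence of Rhox2d was 93.7% to 97.0% identical to those of the other copies. Rhox2e had no unique 50-base word at all. Per 100 unique 50-base words, the Dnmt1Δ/Δep libraries together gave 20.5 counts for Rhox2d, 16 for Rhox2a and 12.0 for Rhox2b, and 3.65 to 5.82 for Rhox2c, Rhox2f, Rhox2g and Rhox2h. With 100-base words Rhox2d remained highest, at 15.0, followed by Rhox2b at 6.20 and Rhox2a at 4.24. The distance between Rhox2d and Rhox2a therefore depended on the word length, and the read length is not known.

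Of the 9 other Rhox genes with at least 90% unique words, 6 had no count in any library. They were Rhox8 (95.1% unique), Rhox11 (100%) and 4 pseudogenes. The remaining 3, Rhox1, Rhox12 and Rhox13, had 22, 2 and 9 counts over the Dnmt1Δ/Δep libraries, so low counts occurred in genes whose reads could be assigned. For the Rhox3 copies the unique share was 0% to 39.5%.

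**Figure D2:**
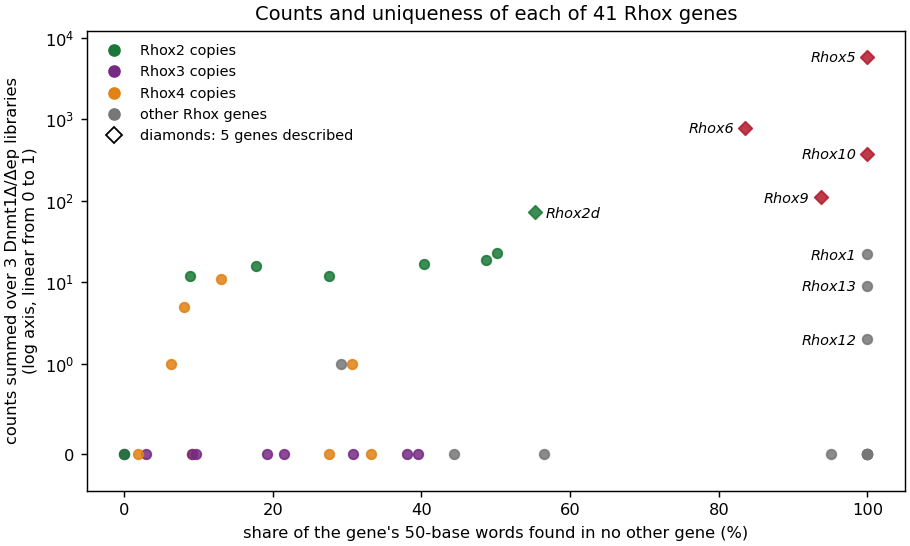
Counts summed over the 3 Dnmt1Δ/Δep libraries (vertical, log axis with a linear stretch from 0 to 1) against the percentage of each gene's 50-base words found in no other gene, for 41 Rhox genes. Diamonds are the 5 genes described. Rhox5, Rhox10, Rhox1, Rhox13, Rhox12 and Rhox11 share the value of 100% and run from 5870 counts to 0, while Rhox3 copies stay at 0 up to 39.5%.

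Along the chromosome the genes with counts were interspersed with genes at or near 0. Many of the latter, such as the Rhox3 copies, have few unique words, so their counts do not show that they are silent. The cluster spans 1092 kb (chrX:37213804-38306028), with the repeated Rhox2, Rhox3 and Rhox4 units on the left and the single genes on the right. Its right end is set by the pseudogene Rhox7-ps1, which starts at 38296868. The last protein-coding gene before it, Rhox13, ends at 38129967. Rhox5, Rhox6 and Rhox9 lie within the middle of the cluster, but Rhox8, Rhox7a and Rhox7b, at 0 or 1 count, lie among them. Rhox11, with 0, is next to Rhox10.

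**Figure D3:**
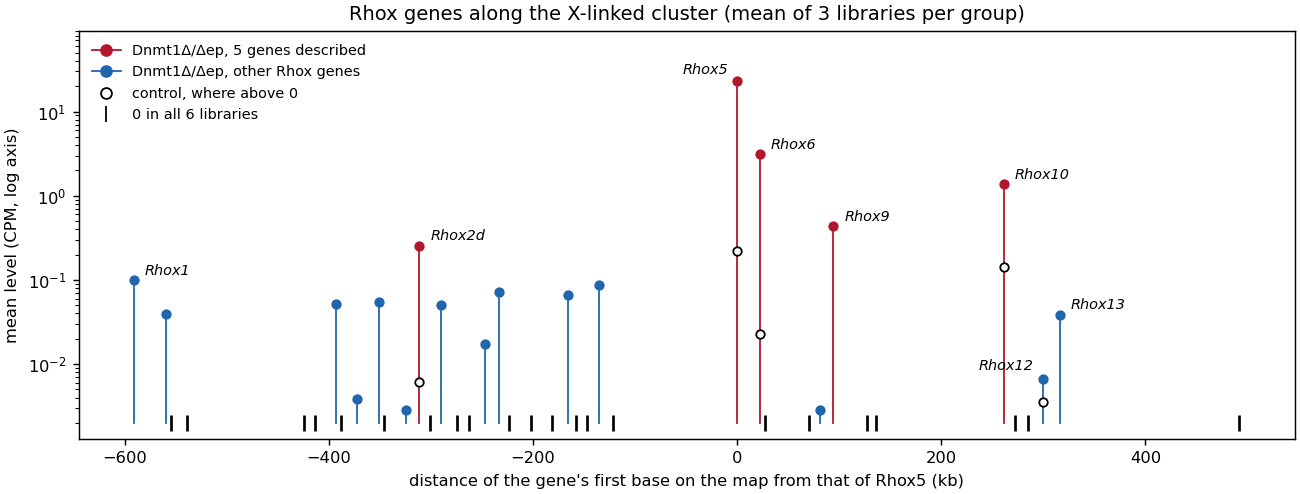
Mean level (CPM, log axis, 3 libraries per group) of each Rhox gene against the distance of its first base on the map from that of Rhox5 in kb. Stems are Dnmt1Δ/Δep means, open circles control means above 0, and ticks mark the 22 genes with no count. Rhox5 (23.1 CPM) is the highest stem, and ticks stand among the stems over the whole cluster.

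Promoter sequence was available in RefSeq for 28 windows of Rhox genes, among them Rhox5, Rhox10 and Rhox2d. The 250 bases before the start are printed for these 3 because the genes differ in strength and because CpG dinucleotides are the sites that DNMT1 keeps methylated. CpG sites are in capitals (RefSeq, GRCm38.p6, plus strand, 5′ to 3′). The windows are chrX:37754358-37754607 for Rhox5, chrX:38066225-38066474 for Rhox10 and chrX:37493160-37493409 for Rhox2d.
Rhox5: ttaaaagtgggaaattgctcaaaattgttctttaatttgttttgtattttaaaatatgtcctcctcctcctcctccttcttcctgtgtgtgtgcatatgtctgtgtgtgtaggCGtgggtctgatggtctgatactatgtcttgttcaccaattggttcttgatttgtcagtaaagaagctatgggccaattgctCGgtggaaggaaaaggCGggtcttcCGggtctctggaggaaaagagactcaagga
Rhox10: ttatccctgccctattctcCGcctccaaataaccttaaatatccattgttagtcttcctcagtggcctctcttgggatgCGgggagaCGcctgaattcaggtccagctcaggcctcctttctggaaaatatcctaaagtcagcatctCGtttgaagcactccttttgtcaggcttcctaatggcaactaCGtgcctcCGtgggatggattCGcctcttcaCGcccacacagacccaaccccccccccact
Rhox2d: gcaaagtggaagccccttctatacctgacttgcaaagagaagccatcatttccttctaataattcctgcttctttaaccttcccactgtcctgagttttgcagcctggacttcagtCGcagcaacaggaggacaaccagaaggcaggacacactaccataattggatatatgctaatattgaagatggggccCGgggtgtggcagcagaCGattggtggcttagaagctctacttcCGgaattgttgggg
Rhox5 and Rhox2d had 4 CpG sites each, and 62.2% of all 32851 windows had at least as many. Rhox10 had 8, a number reached by 43.0% of all windows. The median was 4.5 over Rhox windows (range 0 to 10) and 6 over all windows, so the weakest of the 3 genes and the strongest had the same number of sites. The RefSeq start of Rhox5 lies 50.2 kb upstream of the GENCODE start, and gene counts do not show which start was used. Aligned end to end with gap columns counted, the Rhox2d window was 73.0% to 94.1% identical to those of 6 other Rhox2 copies, several of which gave few counts. Windows that begin at different places lose identity by this measure, as for Rhox2b, with 208 identical bases in 285 aligned columns. The percentages therefore do not measure how far the promoters differ in sequence.

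Motifs were searched on both strands of these windows. GATA occurred once in the Rhox5 and Rhox2d windows and 3 times in that of Rhox10, and 53.6% of all windows hold it. GGAA, the core bound by ETS factors, occurred 6 times in Rhox5 and Rhox2d and 3 times in Rhox10, and 93.4% of all windows hold it. CACGTG and GCGGGA, letters bound by MAX partners and by E2F factors, were in none of the 3, against 6.0% and 16.9% of all windows.

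Genes around the cluster were examined to see whether the change was shared by the neighborhood. Of 62 genes with other names within 1 Mb of it or inside it, 26 were tested, 1 was called higher and none lower (3.85% higher, against 6.03% of all genes). The median log2 fold change of the 26 was -0.07. The called gene was Gm9, a predicted protein-coding gene 2.8 kb outside the cluster, next to Rhox1. It had 2, 1 and 0 counts in control and 127, 133 and 238 in Dnmt1Δ/Δep libraries. No control library reached the level that the filter needs, so Gm9 passed through its Dnmt1Δ/Δep libraries alone and its fitted log2 fold change of 7.13 (SE 0.51) is given as a description.

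Beyond it, Rnf113a1 had a log2 fold change near 0 (7.51 ± 0.431 against 7.50 ± 0.128 CPM, SD, n = 3 each). To the right of Rhox7-ps1, Lamp2, a lysosomal membrane protein gene 95.3 kb away, was the nearest tested gene, at -0.10 on the log2 scale (SE 0.13, edgeR adjusted p = 0.74). Atp1b4 and the pseudogene Gm40, which lie closer on that side, were too low to test. Between Rhox13, the last protein-coding Rhox gene, and the pseudogene Rhox7-ps1 lies Zbtb33, which encodes the methyl-CpG-binding protein Kaiso. It counts as inside the cluster only because the span ends with Rhox7-ps1. It read 86.7 ± 22.8 CPM in control cultures and 72.1 ± 20.1 CPM in Dnmt1Δ/Δep cells (SD, n = 3 each) and was not called (edgeR adjusted p = 0.62). An expressed gene therefore lay within this span, but beyond the protein-coding Rhox genes, in both groups without a call. Without control replicate 1, 2 of the neighboring genes were called higher.

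**Figure D4:**
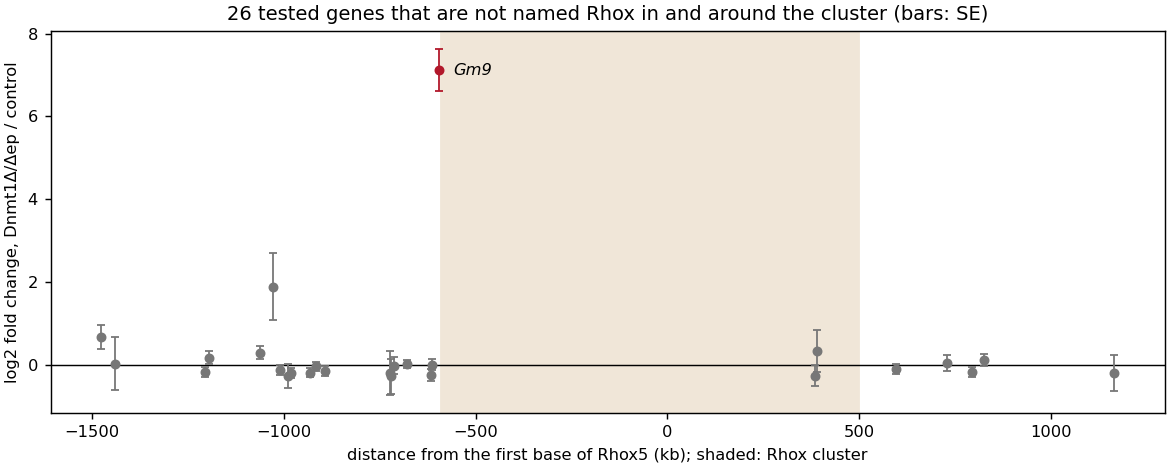
Fitted log2 fold change (Dnmt1Δ/Δep over control, bars SE) of 26 tested genes that are not named Rhox against their distance from the first base of Rhox5 in kb. The shaded span is the Rhox cluster. Gm9 (red), at its left edge, stands at 7.13, and the median of the 26 genes is -0.07.

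On the X chromosome as a whole, 53 of 601 tested genes outside the Rhox family were called higher (8.82%) and 3 lower, with a median log2 fold change of -0.01. On the autosomes 953 of 16084 were called higher (5.93%). Genes of germ cells that are X-linked were also listed, 54 in all, of which 53 lie on the X chromosome and Mageb3, too low to test, on chromosome 2. Of these, 16 had no count at all and 16 passed the filter, with 14 called higher and none lower. For 12 of the 14 no control library reached the level that the filter needs. The others, Fthl17a and Fmr1nb, fell below it in part of the controls. All of the called genes therefore needed Dnmt1Δ/Δep libraries to pass, so their share of calls cannot be set against that of all genes. The only gene with all controls at that level, Xlr3b, was not called. Without Dnmt1Δ/Δep replicate 1, 9 were called.

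The 3 called genes of this group with the highest mean CPM were Fthl17a, a ferritin-like gene, Taf7l, a germ cell paralog of a general transcription factor subunit, and Tex13b. Fthl17a read 0.0317, 0.0718 and 0.223 CPM in control cultures and 46.4, 34.7 and 30.6 in Dnmt1Δ/Δep libraries. Its fitted log2 fold change of 8.62 (SE 0.50) is given as a description, since the gene passed the filter only with its Dnmt1Δ/Δep libraries. Taf7l read 0.0211, 0.0205 and 0.0558 CPM in control and 6.68, 6.65 and 6.07 in Dnmt1Δ/Δep libraries. Tex13b read 0, 0 and 0.0186 against 3.02, 1.54 and 2.95 CPM. Taf7l and Tex13b passed the filter through Dnmt1Δ/Δep libraries alone.

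Of 34 germline genes on autosomes 22 were tested, 17 were called higher and none lower. For 13 of the 17 no control library reached the level of the filter, so the same limit holds. Of the 7 tested genes with all controls at that level, 4 were called higher, against 6.03% of all genes. Among the 4, Tdrkh was called in only 6 of 10 alternative fits, with an edgeR or DESeq2 adjusted p of up to 0.078. Piwil2, which acts in the piRNA pathway, rose from 1.02 ± 0.221 to 10.1 ± 1.58 CPM (SD, n = 3 each; log2 fold change 3.31, SE 0.23, edgeR adjusted p = 0.00049). The meiotic cohesin subunit gene Stag3 rose by 2.47 (SE 0.31, edgeR adjusted p = 0.0039) and the Tudor domain gene Tdrd1 by 1.5 (SE 0.22, edgeR adjusted p = 0.0071) on the log2 scale. DESeq2, which called 6.72% of all genes that it tested higher, called 17 X-linked and 23 autosomal germline genes, and the same limit keeps these numbers from being set against that share.

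Homeobox genes outside the family that belong to gonad, placenta or early embryo were mostly silent. Of 28, 12 had no count in any library and only 2 could be tested. Esx1, an X-linked homeobox gene of placenta and testis outside the cluster, had 7, 5 and 1 counts in control and 16, 40 and 63 in Dnmt1Δ/Δep libraries. It was called higher (log2 fold change 3.02, SE 0.53, edgeR adjusted p = 0.014, range over the alternatives 0.00028 to 0.076), but it passed the filter through its Dnmt1Δ/Δep libraries alone. The call was lost without control replicate 2, Dnmt1Δ/Δep replicate 2 or Dnmt1Δ/Δep replicate 3. The other tested gene, Pou5f2, was at 0.104 ± 0.0903 and 0.128 ± 0.115 CPM (SD, n = 3 each) and was not called.

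Factors known to act on the Rhox5 promoters were also read. Of 11, 10 were tested and 1 was called higher and none lower, against 6.03% and 0.392% of all genes, with a median log2 fold change of -0.03. This was Gata4, a factor of Sertoli and granulosa cells, at 0.307, 0.205 and 0.130 CPM in control cultures and 0.872, 0.798 and 1.38 CPM in Dnmt1Δ/Δep cells (log2 fold change 2.22, SE 0.41, edgeR adjusted p = 0.018, range over the alternatives 3.8e-05 to 0.085). Its call was lost without control replicate 2, Dnmt1Δ/Δep replicate 1 or Dnmt1Δ/Δep replicate 3. With the replicate number as a block, which called 6.97% of all genes higher, 2 of the 10 were called, the second being Gata6.

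Among genes of DNA methylation and silencing, 33 of 33 were tested, 1 was called higher and 1, Dnmt1 itself, lower, or 3.03% each way against 6.03% and 0.392% over all genes. At an unadjusted p under 0.05, 3 of the 33 were higher and 9 lower, against 2656 and 1311 of all 16829 genes. The gene called higher was Suv39h2, a histone H3 lysine methyltransferase gene known for its testis expression, at 16.1 ± 2.78 and 42.0 ± 7.59 CPM (SD, n = 3 each; log2 fold change 1.38, SE 0.18, edgeR adjusted p = 0.0046). The genes of the subunits that hold germline promoters silent were not called, for example E2f6 at a log2 fold change of -0.11 (SE 0.13, edgeR adjusted p = 0.69).

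Genes that lie downstream of Rhox proteins in the gonad were read in the same way. Of 4 genes reported as Rhox5 targets 3 were tested and 0 were called, with 0 at an unadjusted p under 0.05 and 0 called by DESeq2. The most abundant, Adipor2, stood at 78.6 ± 9.06 and 82.1 ± 10.4 CPM, and Pltp, a phospholipid transfer protein gene, at 14.4 ± 4.75 and 11.8 ± 3.87 CPM (SD, n = 3 each). The third tested gene, Unc5c, had 2, 14 and 8 counts in control and 9, 26 and 22 in Dnmt1Δ/Δep libraries (log2 fold change 1.07, SE 0.67, edgeR adjusted p = 0.41). Of 12 genes of spermatogonial stem cells, the cells in which Rhox10 acts, 8 were tested, and 1 was called in each direction, or 12.5% each way against 6.03% higher and 0.392% lower over all genes, which for a list of 8 is too few to read. Gfra1, a GDNF co-receptor gene, was higher (log2 fold change 1.94, SE 0.31, edgeR adjusted p = 0.011). Zbtb16, which many tissues express, was lower (log2 fold change -1.54, SE 0.26, edgeR adjusted p = 0.012). With the replicate number as a block 2 were called higher, Gfra1 and Kit, and DESeq2 also gave 2.

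Markers of cells that normally express Rhox genes were checked in the same libraries. Of 12 markers of Sertoli and granulosa cells, 6 were tested and 1, Gata4, was called higher, against 6.03% of all genes. Their summed level was 410 to 440 CPM in control cultures and 366 to 438 CPM in Dnmt1Δ/Δep cells, of which Sox9, a factor of hair follicle keratinocytes too, gave 336 to 367 and 268 to 335 CPM and Inhba 57.0 to 70.1 and 58.9 to 101 CPM. The defining genes Fshr, Cldn11, Cst9 and Nr5a1 had at most 3 counts in every library. Foxl2, a granulosa cell factor, had 0, 1 and 2 counts in control and 11, 9 and 23 in Dnmt1Δ/Δep libraries, and Wt1 had 4, 2 and 1 against 7, 8 and 8. Of 12 trophoblast markers, 5 were tested and 3 were called higher, Elf5, Prl2c2 and Psg17, against 6.03% of all genes. Prl2c2 and Psg17 passed the filter through Dnmt1Δ/Δep libraries alone, so the share cannot be set against that of all genes. Their summed level was 1.01 to 1.92 CPM in control cultures and 4.54 to 6.92 CPM in Dnmt1Δ/Δep cells, and Prl3d1, Prl3b1, Tpbpa, Psg21 and Gcm1 had at most 3 counts in every library. Hand1 had 0 counts in each control and 12, 10 and 10 in Dnmt1Δ/Δep libraries, and Plac1 had 1, 0 and 1 against 0, 6 and 14. Elf5, a factor that epithelia express too, gave most of the sum in Dnmt1Δ/Δep cells, at 0.442 ± 0.412 and 4.24 ± 1.4 CPM (SD, n = 3 each; edgeR adjusted p = 0.031, range over the alternatives 9.2e-07 to 0.13).

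Of 10 markers of primordial germ cells, 7 were tested and 1, Dazl, was called higher, against 6.03% of all genes, but Dazl passed the filter through Dnmt1Δ/Δep libraries alone. The sum was 67.7 to 81.9 CPM in control cultures and 102 to 109 CPM in Dnmt1Δ/Δep cells, mostly from Tfap2c and Prdm1, which keratinocytes express, and Dppa3 had at most 3 counts in every library. Dazl is also on the list of autosomal germline genes. Other cells of the skin were read as well. No marker of fibroblasts or melanocytes was called, with sums of 15.7 to 33.7 and 17.0 to 67.3 CPM for fibroblasts and of 224 to 573 and 688 to 912 CPM for melanocytes, control and Dnmt1Δ/Δep in turn. The most abundant were Col1a1 (4.98 ± 1.84 and 12.2 ± 7.46 CPM) and Col3a1 (5.37 ± 2.85 and 8.82 ± 5.42 CPM) of fibroblasts, and Pmel (142 ± 69.6 and 254 ± 48.7 CPM) and Tyrp1 (120.0 ± 53.4 and 246 ± 43.1 CPM) of melanocytes (SD, n = 3 each). Of 8 leukocyte markers 4 were tested, and Csf1r and Itgam were called higher, against 6.03% of all genes, and in 6 and 5 of the 10 alternative fits. Cd68 gave most of the leukocyte sum (49.2 to 63.2 and 102 to 119 CPM), at 48.9 to 62.2 and 98.7 to 115 CPM. It missed the call on the 2-fold limit alone (log2 fold change 0.97, SE 0.12, edgeR adjusted p = 0.0041). Cd3e and Adgre1 had at most 3 counts in every library. Of 5 endothelial markers 4 were tested, and Pecam1 and Cdh5 were called higher, against 6.03% of all genes (sum 5.29 to 17.3 and 14.5 to 22.1 CPM). Pecam1 read 1.92 ± 0.639 and 7.16 ± 1.34 CPM and Cdh5 0.255 ± 0.264 and 4.62 ± 1.1 CPM (SD, n = 3 each). Both were called in 10 of 10 alternative fits. Cdh5 read 0.0931 CPM in control replicate 3, below the level of the filter, so it needed Dnmt1Δ/Δep libraries to pass. Kdr, with means of 6.81 and 6.11 CPM, and Tek, with 0.81 and 1.2 CPM, were not called. The part of these cells in the Rhox levels was not tested.

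The genes with the pattern most like the 5 Rhox genes were sought over the 6 libraries, by the Pearson correlation of log2 CPM with the mean of the 5 genes, each scaled to unit variance. They were Ssc5d (r = 0.9997), Tktl1 (r = 0.9991) and Trap1a (r = 0.9989), of which the last 2 are X-linked. Ssc5d had 5, 5 and 3 counts in control and 11, 14 and 23 in Dnmt1Δ/Δep libraries, and was called in 1 of 10 alternative fits. Tktl1 had 0 counts in each control and 32, 28 and 62 in the Dnmt1Δ/Δep libraries, and Trap1a had 0 in each control and 62, 61 and 131. Since the libraries fall into their 2 groups, a high r is common. It was 0.95 or more for 739 of 16824 genes.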

How the data were processed

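Poly(A) RNA libraries were sequenced from keratinocytes of 3 control and 3 Dnmt1Δ/Δep mice. The deposited values are raw counts of reads per gene, which the authors obtained with STAR and htseq-count in union mode. The submitters' processing notes name GRCm38, while the study's methods name a human build for the alignment index. The column headers mark the counts as made from uniquely aligned reads. Strand setting and read length are not given in the sources used here, and no exon of the 5 Rhox genes overlaps another annotated gene. Tables of repeats and columns holding the authors' own comparisons (fold changes, p-values) were not used. Of 43629 gene identifiers, 42462 matched a symbol and position in GENCODE M21. Entries that name no gene (5 rows, 8.73% to 12.88% of a library) were left out.

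Counts were tested with edgeR 4.0.16 (R 4.3.3; TMM, filterByExpr with a minimum of 10 and a total of 15, quasi-likelihood test, Benjamini-Hochberg adjustment over 16829 genes), with DESeq2 1.42.0 as an alternative. A call needed an adjusted p of 0.05 or less and at least a 2-fold change. Both tools were tested on simulated data. CPM is counts per 1000000 of the TMM-scaled library total, RPKM is CPM per kilobase of exon, and intervals of ratios are exact conditional 95% intervals of counts. A fold is given as a bound against 3 counts per library where a group is at 0. Words of 50 and 100 bases were counted over all GENCODE M21 transcripts.

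Replicate numbers pair the libraries. Those of the same number share 1 of 3 lanes, and their deviations from the group means correlate (r = 0.459, 0.374 and 0.303 over 12308 genes). The fit has no block, and the methods of the study name none. The labels name separate mice but not their litters.

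The 5 genes, the lists and the tests were chosen with earlier results of these data known. Named genes are the 5 Rhox genes, other Rhox genes with a count, Dnmt1, at most the 3 called genes of each list with the highest mean CPM (or the 2 highest where none was called), the called and nearest neighbors of the cluster, and the 3 genes most like the 5. Xist, Zbtb33, Lamp2, Xlr3b, Mageb3, Fmr1nb, Tdrkh, Sox9, Inhba, Cd68, Tfap2c, Prdm1, Krt1, Krt10, Ivl, Lor, Col17a1, Foxl2, Wt1, Hand1, Plac1, Kdr, Tek, Unc5c, E2f6, L3mbtl2, Mga, Max, Pou5f2, Gata6 and Kit were named after their values were seen. The value of 1 listed gene is not reported here.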

Additional observations from a re-analysis of the deposited data

How the results depend on the processing

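Over 18 results, 147 alternative values were computed, and 121 of them kept their direction and stayed within the limits set for a change. No call was lost or reversed for Dnmt1, whose log2 fold change lay between -2.92 and -2.77. Without each library in turn the mean Rhox levels in Dnmt1Δ/Δep cells ranged from 20.5 to 24.5 CPM for Rhox5, 2.48 to 3.69 for Rhox6, 1.17 to 1.59 for Rhox10, 0.327 to 0.556 for Rhox9 and 0.214 to 0.291 for Rhox2d. Of the 36 other Rhox genes, 9 had more than 3 counts in some library, 14 at least 1 and 4 at least 10.

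Counts of calls depended more on the processing. Without 1 library each, 559 to 1183 genes were called higher and 15 to 180 lower, against 1014 and 66. Genes called lower numbered 107 without the filter on low counts and 122 with DESeq2. Leaving out 1 library gave 9 to 15 X-linked germline genes, 0 to 1 other homeobox genes, 0 to 1 factors acting on Rhox5, 1 to 2 spermatogonial genes and 1 to 2 genes near the cluster. Spermatogonial genes called higher numbered 2 without the filter, with DESeq2 and with the replicate block. With the replicate block 2 factors acting on Rhox5 were called, 1173 genes were called higher and 95 lower, and beside these factors and the spermatogonial genes no count moved by more than 1.5 times. The cause of these changes was not tested. At 3 mice a group, an exact permutation test of 1 gene cannot go below 0.1, and Rhox genes at 0 are limited by depth and by how many of their reads can be assigned.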
